A study of Mus musculus with 21 samples.

Results

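High-fat diet (HFD) islets were compared with regular diet (RD) islets in 14 of the 21 RNA-seq libraries of the study, 7 per diet, taken by the diet and replicate number in each title (1 HFD title writes HF). The mice were CBA males that were given either standard chow or HFD from 10 weeks of age, for 9 weeks by the methods of the study and 10 weeks by its results. No genetic change or drug separated the groups, and the other 7 libraries, from HFD mice given the AMPK activator O304, entered only 1 alternative fit. Each library held RNA of 150 islets out of a pool from 5 mice. A library therefore averages over animals and cell types, and p-values measure the spread between pools.

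The islet of Langerhans is a small endocrine organ within the pancreas, built mostly of insulin-producing β-cells with fewer glucagon-producing α-cells, somatostatin-producing δ-cells and pancreatic polypeptide (PP) cells. It is threaded by capillaries with pericytes, basement membrane and macrophages. When other tissues become resistant to insulin, mouse islets are known to release more insulin and to grow by β-cell division. The comparison asked which transcripts differ in islets that have met this demand. The 71 gene lists read here cover cell division, the secretory pathway, fuel use, excitability, signalling, matrix and 14 sets of cell type markers.

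The files hold read pairs per gene without normalization. Pairs on genes ranged from 27618749 to 44041180 per library, and the insulin genes Ins1 and Ins2, the defining markers of the labelled tissue, together took 24.2 to 29.6% of them. Values are given as normalized read counts, that is counts divided by DESeq2 size factors, and fold changes are log2 values of HFD over RD from edgeR's quasi-likelihood test. The 500 genes of highest variance were reduced to principal components. The first (46.5% of variance) ran from -18.73 to 19.12 in RD and from -33.44 to 21.95 in HFD libraries, so that the diets overlapped. The second (32.6% of variance) held the RD libraries between -15.6 and -3.42 and 6 HFD libraries between 5.40 and 25.2. On the second component HFD replicate 7 lay at -7.54, among the RD libraries. Acinar markers, a sign of exocrine tissue carried along with the islets, summed to 4509 to 397222 counts in RD and 1216 to 312232 in HFD libraries. None of their 28 genes was called by edgeR (2 at an unadjusted p under 0.05, 0 called by DESeq2). Within the diets the acinar sum was highest in RD replicate 6 and HFD replicate 1 and lowest in RD replicate 1 and HFD replicate 2. These libraries also lay highest and lowest of their diets on the first component, and a link was not tested. Replicates 1 to 4 and 5 to 7 of both diets carry library numbers from separate runs of numbers. Medians within each set are given only for the mitosis, DNA replication, α-cell, collagen, matrix glycoprotein and imprinted lists.

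**Figure D1:**
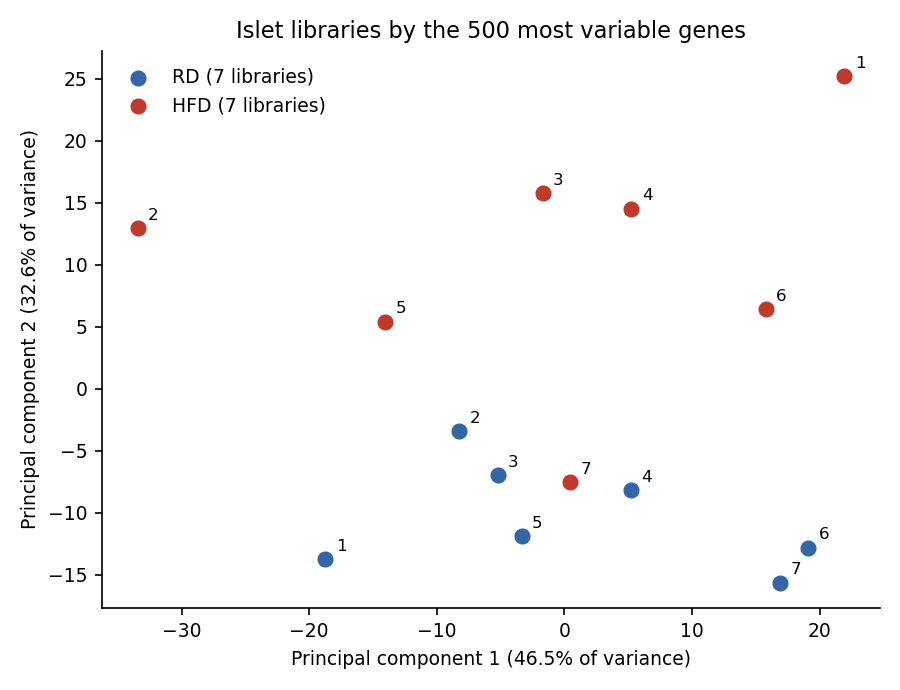
Position of the 14 libraries on the first and second principal components of the 500 genes of highest variance (axes give each component's share of variance in percent), with diets in separate colours and replicate numbers beside the points. HFD replicate 7 sits at -7.54 on the second component, inside the RD range of -15.6 to -3.42, while the other HFD libraries lie at 5.40 or above.

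Of 25665 genes with a sum of at least 10 counts over the 14 libraries, 627 (2.44%) were differentially expressed at an adjusted p under 0.01 (edgeR with Benjamini-Hochberg adjustment). The 379 higher genes made up 1.48% and the 248 lower genes 0.966% of those tested, and the median log2 fold change of all genes was 0.0025. Called genes had a median absolute log2 fold change of 0.68 and a median standard error of 0.13, and 189 had a log2 fold change beyond 1 in either direction. At a mean of at least 50 counts 4.13% of genes were called, and counts of called list members stand against these shares. Shares of lists are taken over all tested members, also those below 50 counts, and 2.44% is the share under the same filter. At a mean of at least 50 counts, 228 of the 546 called genes had no overlap between the diets, 110 of them higher in HFD, where 2.39% of all genes at that level had none. Without HFD replicate 7 this count was 461, and that library lay inside the RD range for 280 of the 546 (51.3%) and past it, against the direction of the call, for 7. RD replicates 2, 3 and 4 lay inside the HFD range for 190 (34.8%), 169 and 128 of the 546. That range includes HFD replicate 7, which widens it towards RD, and these counts were not taken without it. Without RD replicate 2 alone 651 genes were called, and without HFD replicate 7 and RD replicate 2 together 1443, among them 617 of the 627. Leaving out 1 library gave 308 (without RD replicate 7) to 1306 genes (without HFD replicate 7), and the other low counts were 325 without HFD replicate 3, 328 without RD replicate 5, 338 without HFD replicate 4, 349 without RD replicate 1, 378 without HFD replicate 2 and 381 without RD replicate 6. No called gene changed sign between replicates 1 to 4 and replicates 5 to 7 or in any of the 14 fits that left out a library. Of the 627, 276 were called in each of those fits. Of the 71 gene lists, 59 had more called members without HFD replicate 7 and 0 had fewer. In whole islets, fewer cells of a type and less RNA per cell cannot be told apart.

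The smallest adjusted p belonged to Fabp4 (chr3:10204088-10208576, minus strand, GRCm38), which encodes a cytosolic fatty acid binding protein. Its counts ran from 99.8 to 154 in RD (median 136) and from 265 to 331 in HFD libraries (median 301), a log2 fold change of 1.17 ± 0.10 (SE, n = 7 per diet; edgeR adjusted p = 5.53e-06). The diets did not overlap, HFD replicate 7 included. Gsto2, a glutathione transferase of the omega class (chr19:47865534-47886324, plus strand), rose from a median of 116.5 (99.0 to 134) to 386 (209 to 586), a log2 fold change of 1.80 ± 0.18 (edgeR adjusted p = 4.78e-05). Gatm, the first enzyme of creatine synthesis, rose by 0.90 and Asic1, an acid-sensing sodium channel, by 0.58 on the log2 scale, also without overlap. The uncharacterised transcript 6330403K07Rik rose by 1.76. Among lower genes the smallest adjusted p belonged to Vwde, which encodes a protein with von Willebrand factor and EGF domains (log2 fold change -1.20, edgeR adjusted p = 6.38e-05). Tnr, the matrix protein tenascin R, fell by 0.83 on the log2 scale, the lipoprotein receptor gene Vldlr by 0.68 and the adaptor gene Grb10 by 0.48.

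Among called genes at 50 counts or more without overlap and with a symbol not of the Gm or Rik kind, the 10 largest log2 increases were those of Gsto2, Dapl1 (1.79), Cartpt (1.50), Inhba (1.49), Vstm2a (1.48), Fat3 (1.45), Cdca3 (1.24), Gc (1.20), Fabp4 (1.17) and Aass (1.07). Fat3 is an atypical cadherin, Cdca3 acts at mitotic entry, Gc is the vitamin D binding protein and Aass begins the breakdown of lysine. Dapl1 ran from 1775 to 2984 counts in RD and from 3016 to 17830 in HFD. Among the 10 largest decreases were those of Npy (-1.42), Vwde, Fam184b (-1.19), Trpm5 (-1.17), Lpl (-1.08), Adam32 (-1.04), Pnoc (-1.03), Gap43 (-1.02) and Higd1a (-1.01). Pnoc encodes the precursor of nociceptin, Gap43 a growth cone protein and Higd1a a mitochondrial protein induced by hypoxia. The genes named so far as largest or of smallest p were called in every fit that left out 1 library, with a highest adjusted p of 0.00965 (Pnoc, without RD replicate 7).

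**Figure D2:**
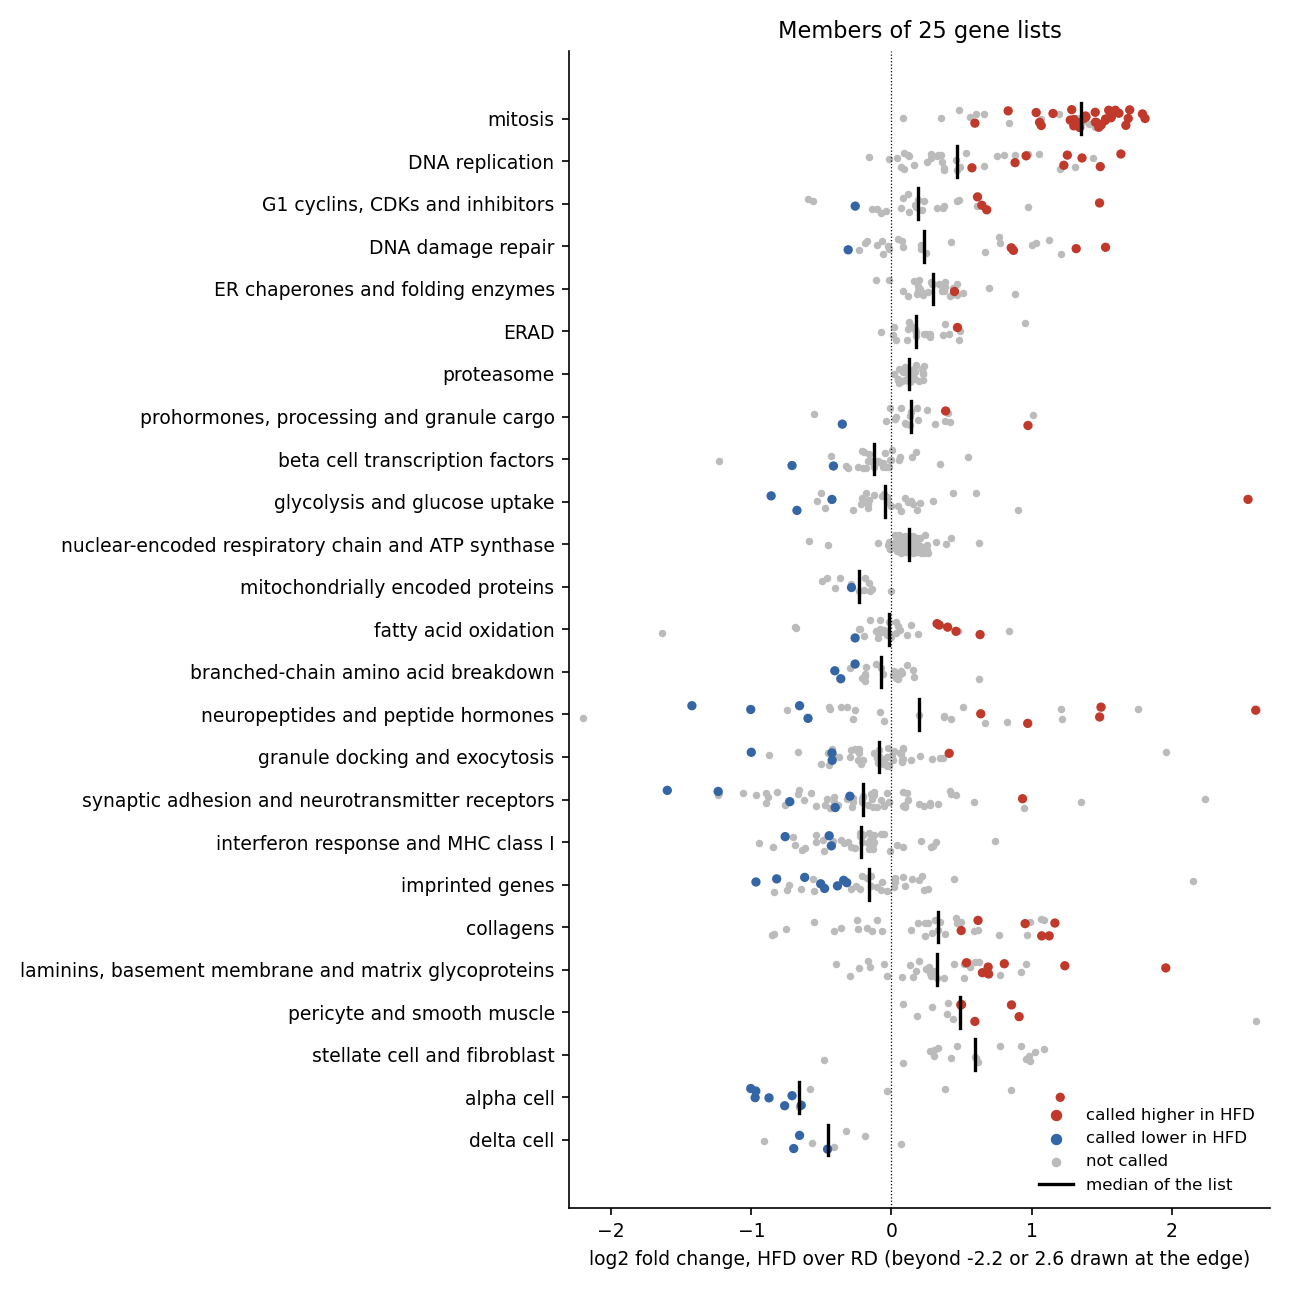
Log2 fold change of HFD over RD (horizontal axis) for the tested members of 25 gene lists (rows), with members called higher in red, called lower in blue and the rest in grey, and a black mark at each list's median (3 values are drawn at the edge). The mitosis list stands at a median of 1.35 with 34 of 48 members called, while the nuclear genes of the respiratory chain sit close together at a median of 0.13 without a call.

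Genes of cell division formed the list with the highest share of called members. Mitosis genes encode the kinases, cyclins, kinesins and kinetochore proteins that build the spindle and part the chromosomes, and 34 of 48 were higher and none lower in HFD. The median of the list was 1.35 on the log2 scale, and all 48 lay above 0. Plk1, the polo-like kinase of mitotic entry, ran from 18.9 to 40.6 counts in RD (median 33.3) and from 40.3 to 163 in HFD (median 124), a log2 fold change of 1.79 ± 0.24 (edgeR adjusted p = 0.000235). Cdk1, the kinase that drives entry into mitosis, ran from 64.1 to 90.5 (median 85.3) and from 72.0 to 446 (median 259), a log2 fold change of 1.67 ± 0.26 (edgeR adjusted p = 0.000837). In both genes HFD replicate 7 was the only HFD library inside the RD range, and it lay inside that range for 31 of the 34 called members and below it for the remaining 3, while for each of the other 6 HFD libraries 0 of 34 lay inside. Mki67, which encodes the proliferation antigen Ki-67, rose by 1.69, the survivin gene Birc5 by 1.70, the spindle gene Hmmr by 1.81 and the kinesin gene Kif22 by 1.30. Ccnb1 and Ccnb2, the B-type cyclins that activate Cdk1, rose by 1.60 and 1.46, and Top2a, the topoisomerase that untangles replicated chromosomes, by 1.55. The 48 genes summed to 10763 to 14059 counts per RD library and 10961 to 24665 per HFD library.

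Within replicates 1 to 4 the median log2 fold change of the mitosis list was 1.76 with 47 of 48 called, and within replicates 5 to 7, which include HFD replicate 7, it was 0.59 with 0 called by edgeR. Replicates 1 to 4 are the set in which library numbers follow diet. No gene of the whole table passed the test for a different diet effect between the sets (edgeR, 0 of 25665 at an adjusted p under 0.01, with 1695 at an unadjusted p under 0.05), and DESeq2 called 7. Without HFD replicate 7 and RD replicate 2 together the median of the mitosis list was 1.52 and 47 were called. The number called was 18 without HFD replicate 3, 19 without RD replicate 7 or HFD replicate 2, 20 without RD replicate 1 and 21 without RD replicate 5, and 46 without HFD replicate 7. The median stayed between 1.20 and 1.50 over the 14 fits.

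Genes of DNA replication, which load the helicase, supply nucleotides and copy the strands, had 8 of 39 members higher and none lower, and a median of 0.47 on the log2 scale. They were Uhrf1, which carries DNA methylation through replication (1.64), the ribonucleotide reductase subunit gene Rrm2 (0.88), the helicase subunit genes Mcm5 (0.96) and Mcm2 (0.57), the polymerase subunit gene Pole (1.23), Hells (1.26), Clspn (1.49) and the thymidine kinase gene Tk1 (1.36). Mcm2 ran from 545 to 630.1 counts in RD and from 662 to 1330.5 in HFD, without overlap. Within replicates 1 to 4 the median of the list was 0.66 and within replicates 5 to 7 it was 0.21. The count of called members was 2 without RD replicates 1, 5, 6 or 7 or HFD replicates 2 or 4, 3 without RD replicate 4, 4 without RD replicates 2 or 3, 5 without HFD replicates 1 or 3 and 17 without HFD replicate 7. Of 27 G1 cyclins, kinases and inhibitors, E2f8 (1.49) and E2f1 (0.61), transcription factors of the cycle, Ccne2 (0.68) and the inhibitor Cdkn1a (0.65) rose, and the D-type cyclin gene Ccnd2 fell from 33959 to 42391 counts in RD to 28861 to 31492 in HFD (log2 fold change -0.26, no overlap). Of 28 DNA repair genes 4 rose, among them Fanci (1.53), Rad51ap1 (0.85) and the checkpoint kinase gene Chek2 (0.87), and Atm, the kinase that senses double-strand breaks, fell by 0.31. Leaving out single libraries ended the call of Mcm5, Mcm2, Pole, Hells, Clspn, Tk1, Ccne2, Cdkn1a, Ccnd2, Fanci, Rad51ap1, Chek2 and Atm. Their highest adjusted p ran from 0.0103 (Fanci, without HFD replicate 2) to 0.0282 (Ccne2, without HFD replicate 4). With HFD replicate 7 left out, the number called was 10 of the DNA repair genes (against 5) and 8 of the G1 list (against 5).

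**Figure D3:**
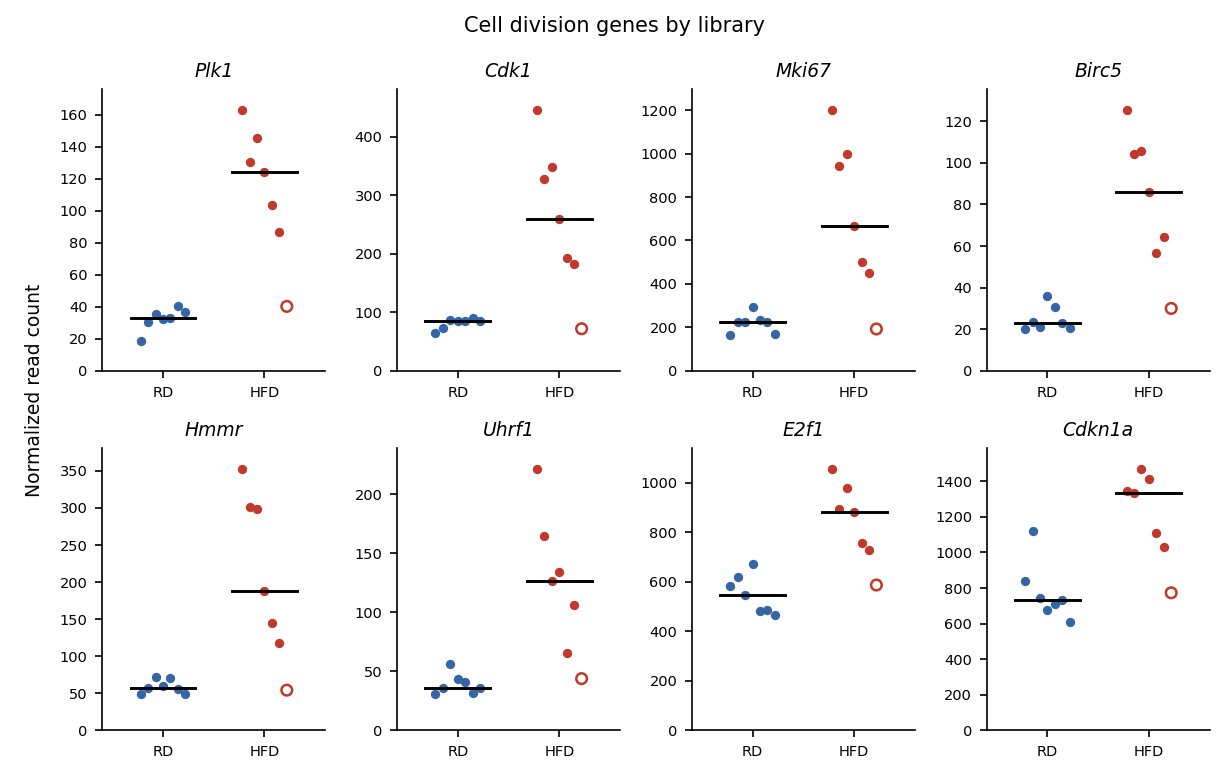
Normalized read count (vertical axes, from 0) of 8 cell division genes in the 7 RD and 7 HFD libraries, placed from left to right by replicate number, with a line at the median and HFD replicate 7 as an open circle. Plk1 runs from 18.9 to 40.6 in RD with 6 HFD libraries above that range and HFD replicate 7 inside it.

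Since the mitosis genes rose together, the sequence before the start of the 3 called members with the smallest p is shown from RefSeq (GRCm38.p6), for Plk1 (chr7:122159185-122159434 on the plus strand), Birc5 (chr11:117848987-117849236 on the plus strand) and Cdk1 (chr10:69352913-69353162 on the minus strand). Capitals mark CCAAT, the box bound by NF-Y (ATTGG where it lies on the other strand), TTTGAA or TTCGAA, forms of the cell cycle homology region, and TTTCGCGC or TTTGGCGC, forms of the E2F site.
Plk1: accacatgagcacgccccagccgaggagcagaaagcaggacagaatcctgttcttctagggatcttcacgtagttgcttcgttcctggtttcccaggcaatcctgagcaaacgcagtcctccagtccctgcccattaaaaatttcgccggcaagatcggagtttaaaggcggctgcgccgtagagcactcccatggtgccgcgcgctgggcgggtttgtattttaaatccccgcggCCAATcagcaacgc
Birc5: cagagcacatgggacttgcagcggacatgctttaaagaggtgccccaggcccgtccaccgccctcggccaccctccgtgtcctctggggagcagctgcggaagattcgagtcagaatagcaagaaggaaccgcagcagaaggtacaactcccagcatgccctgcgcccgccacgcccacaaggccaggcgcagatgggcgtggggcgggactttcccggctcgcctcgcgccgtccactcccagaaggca
Cdk1: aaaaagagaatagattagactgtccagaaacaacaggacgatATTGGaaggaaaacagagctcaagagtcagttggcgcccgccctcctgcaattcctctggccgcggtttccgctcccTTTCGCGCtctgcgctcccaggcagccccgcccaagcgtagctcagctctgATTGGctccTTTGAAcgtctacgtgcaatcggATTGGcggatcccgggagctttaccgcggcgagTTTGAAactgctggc
Cdk1 held CCAAT at 3 places, TTTGAA at 2 and TTTCGCGC at 1. Plk1 held CCAAT 14 bases before its start and TTTGAA 31 bases after it, beyond the printed stretch, and Birc5 held none of these letters in the window searched. In windows from 250 bases before to 50 after the start, searched on both strands, 33 of the 40 mitosis genes with a window (82.5%) held TTTGAA or TTCGAA, against 19.2% of all 32851 windows. CCAAT stood in 30 (75.0%), against 37.4%. Of 32 DNA replication genes with a window, 9 (28.1%) held an E2F form, against 0.813% of all windows, and 4 (12.5%) held TTTGAA or TTCGAA. The matches are counts of letters, and overlap between matches was not checked.

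Peptide hormone genes moved in both directions, with 5 of 29 tested members higher and 4 lower. Gcg, which encodes glucagon (chr2:62474530-62483650, minus strand), fell from 776010 to 988550 counts in RD (median 813830) to 284800 to 600130 in HFD (median 389550), a log2 fold change of -1.0 ± 0.13 (edgeR adjusted p = 0.000168). No HFD library reached the RD range. Sst, which encodes somatostatin, ran from 82078 to 132120 in RD (median 93618) and from 44120 to 99772 in HFD (median 62420), a log2 fold change of -0.66 ± 0.15 (edgeR adjusted p = 0.00956). Its call was kept in 1 of the 14 fits that left out a library, with an adjusted p of up to 0.0264 (without RD replicate 1). HFD replicate 7 alone exceeded 67919 counts of Sst among the HFD libraries. Npy, neuropeptide Y, fell from a median of 316 (210.5 to 497) to 120.3 (82.9 to 171) without overlap, and Edn3, the vasoactive peptide endothelin 3, fell by 0.60. Cck, cholecystokinin, ran from 1.05 to 9.10 counts in RD (median 5.12) and from 17.1 to 287 in HFD (median 49.3), a log2 fold change of 4.01 ± 0.64 (edgeR adjusted p = 0.000990). Cartpt, the cocaine and amphetamine regulated transcript, rose from a median of 154 (79.8 to 255) to 436 (277 to 722), and Inhba, a subunit of activins, from 54.7 (45.2 to 76.4) to 157 (105.3 to 242). Neither overlapped between the diets. Stc1, the glycoprotein hormone stanniocalcin, rose by 0.64 and Nucb2, the precursor of nesfatin, by 0.97. Calls that did not hold without every library were those of Sst, Stc1 and Nucb2. At most, the adjusted p of these genes ran from 0.0103 (Stc1, without RD replicate 7) to 0.0264 (Sst, without RD replicate 1).

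Other markers of the same cells stood beside the fall of Gcg and Sst. Of 13 α-cell markers tested, 7 were lower and 1 higher, and their summed counts, most of them Gcg, ran from 850404 to 1059100 in RD and from 395428 to 708772 in HFD libraries. The α-cell transcription factor genes Irx2 (log2 fold change -0.87) and Pou3f4 (-0.97) fell, as did Slc7a2 (-0.64), which carries cationic amino acids, and the vesicle gene Sv2b (-0.76), while Gc rose by 1.20. Irx1 stood at -0.66 (edgeR adjusted p = 0.0698), and Ttr, transthyretin, at 0.85 (edgeR adjusted p = 0.0104), neither of them called. The list had a median of -0.66, against -0.74 in replicates 1 to 4 alone and -0.53 in replicates 5 to 7 alone. Of 9 δ-cell markers, Sst, the ephrin gene Efnb3 (-0.70) and the retinol carrier gene Rbp4 (-0.46) fell and none rose. Their summed counts, most of them Sst, were 86038 to 136971 in RD and 46829 to 104387 in HFD. Rbp4 also stands in the list of β-cell maturity and stress markers. Of 7 PP cell markers Cartpt rose and Sertm1 fell by 0.80, and Ppy, pancreatic polypeptide itself, stood at -0.26 (edgeR adjusted p = 0.403). Single libraries decided the calls of Pou3f4, Sv2b, Efnb3, Rbp4 and Sertm1. For these genes the highest adjusted p ran from 0.0104 (Efnb3, without RD replicate 7) to 0.0178 (Pou3f4, without RD replicate 7).

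**Figure D4:**
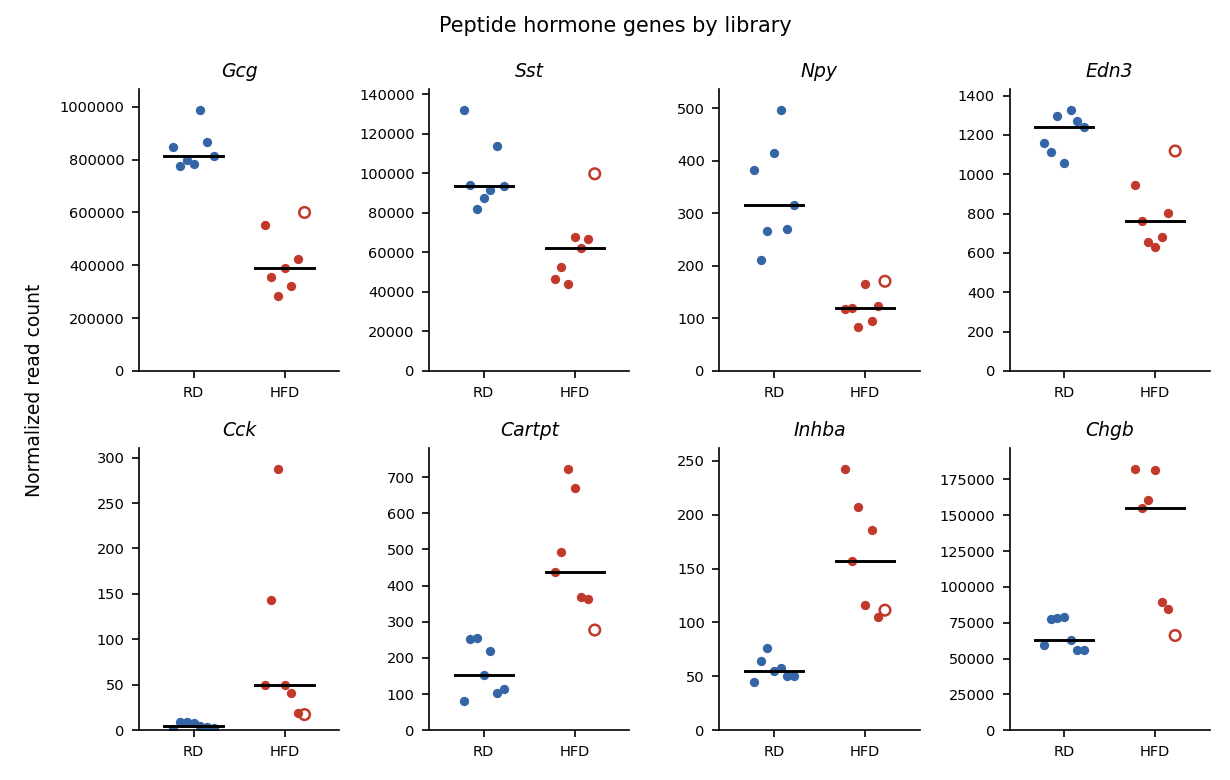
Normalized read count (vertical axes, from 0) of 8 peptide hormone and granule genes in the RD and HFD libraries, ordered by replicate number within a diet, with a line at the median and HFD replicate 7 as an open circle. Gcg runs from 776010 to 988550 in RD and from 284800 to 600130 in HFD, while Sst of HFD replicate 7 (99772) falls inside the RD range of 82078 to 132120.

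Of 12 β-cell markers 3 fell and none rose, and their sum, most of it insulin, was 10073200 to 12209400 counts in RD and 11635200 to 13612800 in HFD. Ins1 ran from 2381400 to 2904300 in RD and from 2550400 to 3167400 in HFD (log2 fold change 0.13, edgeR adjusted p = 0.147). The 3 that fell were Trpm5, a cation channel opened by calcium (1605 to 2539 counts in RD, 471 to 1389 in HFD), Slc2a2, the glucose transporter GLUT2, and Slc30a8, which loads zinc into insulin granules (-0.35). Of the genes of glucose uptake, 3 transporter genes fell: Slc2a2 by 0.67, Slc2a3 (GLUT3) by 0.86 and Slc2a1 (GLUT1) by 0.42 on the log2 scale. The 34 genes of glucose uptake and glycolysis had a median of -0.04. Slc2a2 ran from 29806 to 36600 counts in RD and from 11839 to 27570 in HFD, without overlap. Fbp2, the muscle form of the gluconeogenic enzyme fructose bisphosphatase, was the only riser of that list, from 2.10 to 10.2 counts in RD to 16.3 to 66.9 in HFD (log2 fold change 2.54 ± 0.36, edgeR adjusted p = 0.000352). Of 33 β-cell transcription factor genes 2 fell, among them Myt1 (-0.41), none rose, and 7 lay above 0. Of 21 maturity and stress markers, Dapl1, Cck, Serpina7 (1.39), the retinaldehyde dehydrogenase gene Aldh1a3 (1.26) and Txnip (1.28), an inhibitor of thioredoxin induced by glucose, rose. Trpm5, Slc2a2 and Rbp4 fell. Of 17 targets of ChREBP, the glucose-activated transcription factor, Txnip rose and Scd1, a fatty acid desaturase, fell by 0.78. Without single libraries the threshold was missed by Slc2a1, Slc2a2, Slc30a8, Myt1, Aldh1a3, Txnip and Scd1. Across them the highest adjusted p ran from 0.0113 (Aldh1a3, without RD replicate 5) to 0.0253 (Myt1, without RD replicate 7).

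Genes of the secretory pathway mostly lay a little above 0, with few single calls. Of all genes tested 50.5% lay above 0. Medians were 0.177 for ER-associated degradation, 0.185 for translocation and N-glycosylation and 0.160 for coated vesicles. Small upward medians were not confined to this pathway. Genes with a symbol of Rps or Rpl and a digit, at 50 counts or more, had medians of 0.160 and 0.138. Newly made prohormone enters the endoplasmic reticulum (ER), is folded there by chaperones and disulphide isomerases, and leaves in coated vesicles towards the granules. Of 31 ER chaperones and folding enzymes, 29 had a log2 fold change above 0 with a median of 0.29. Selenom, a selenoprotein of the ER, was the only member called (0.45 ± 0.09, edgeR adjusted p = 0.00583; 2794 to 4036 counts in RD, 4237 to 6004 in HFD). The chaperone genes Hspa5 (BiP) and Hsp90b1 and the disulphide isomerase gene P4hb stood at 0.44, 0.42 and 0.44 with edgeR adjusted p of 0.148, 0.0940 and 0.0437. The count called in this list was 12 with the library set as a covariate, 5 without HFD replicate 7 and RD replicate 2 together, and 0 without RD replicates 4, 5, 6 or 7 or HFD replicates 2, 3, 4 or 5 and 4 without HFD replicate 7. Of its 25 genes with a promoter window, 7 (28.0%) held the ER stress response element, which begins with CCAAT, against 0.119% of all windows, and Selenom was not among them. Of 24 genes of ER-associated degradation 23 lay above 0, and Edem2, which hands misfolded glycoproteins to degradation, was called (9669 to 12402 counts in RD, 12135 to 17472 in HFD; log2 fold change 0.47). Of 47 genes of translocation and N-glycosylation 45 lay above 0 and the signal peptidase subunit gene Sec11c was called (0.66). Of 38 genes of coated vesicles 35 lay above 0 and the KDEL receptor gene Kdelr3 was called (1.06). Shares called were 3.23% of the chaperone list, 4.17% of the degradation list, 2.13% of the translocation list and 2.63% of the coated vesicle list. Among all genes at 50 counts or more the share was 4.13%. None of 18 sensors and transcription factors of the unfolded protein response was called by edgeR (4 at an unadjusted p under 0.05, 2 called by DESeq2). Their smallest p belonged to Ppp1r15a (0.27, edgeR adjusted p = 0.0217), Atf3 (1.10, 0.0219) and Creb3 (0.36, 0.0442). Of 34 targets of ATF4, Pycr1, an enzyme of proline synthesis, rose by 0.69, and Vldlr and Cth, an enzyme of cysteine synthesis (-1.14), fell. Among the named genes, calls were not kept throughout for Sec11c, Kdelr3, Pycr1 and Selenom. The highest adjusted p per gene then ran from 0.0139 (Kdelr3, without RD replicate 7) to 0.0165 (Selenom, without RD replicate 7). Counts of called members rose without HFD replicate 7 to 4 of the degradation genes (against 1) and 5 of the translocation and glycosylation genes (against 1).

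Of 22 prohormone, processing and granule genes 2 rose and 1 fell. Chgb, chromogranin B, ran from 55626 to 79024 counts in RD (median 63133) and from 66046 to 182140 in HFD (median 154820), a log2 fold change of 0.97 ± 0.19 (edgeR adjusted p = 0.00456). Scg2, secretogranin 2, ran from 385300 to 513630 and from 495940 to 670130 (0.39, edgeR adjusted p = 0.00331). Slc30a8 was the member that fell. Iapp, the amyloid peptide released with insulin, stood at 0.42 (edgeR adjusted p = 0.0157), and the prohormone convertase genes Pcsk1 and Pcsk2 at 0.13 and 0.03. Of 51 genes of granule docking and exocytosis, Stxbp5l (tomosyn 2, an inhibitor of SNARE assembly; -1.0), the Rab27 effector gene Exph5 (-0.42) and the small GTPase gene Rab3c (-0.42) fell without overlap and Rab3d (0.41) rose. Stxbp5l ran from 188 to 294 in RD and from 96.6 to 163 in HFD. The calls that depended on single libraries were those of Chgb, Scg2, Slc30a8 and Rab3d. Their highest adjusted p ran from 0.0125 (Scg2, without RD replicate 7) to 0.0224 (Rab3d, without RD replicate 7). Leaving out HFD replicate 7 gave 7 of the processing and granule genes (against 3) and 11 of the exocytosis genes (against 4).

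Lists of excitability and calcium handling held from 1 call (cyclic AMP signalling) to 4 calls (TRP channels), or 2.50% to 17.4% of their members. Their shares stand against 2.44% of all genes called and 4.13% of those at a mean of at least 50 counts. Of 28 voltage-gated calcium, sodium and chloride channel genes, Cacna2d2, an auxiliary calcium channel subunit, fell from 367 to 485 counts in RD to 209.5 to 335 in HFD (log2 fold change -0.75 ± 0.10, edgeR adjusted p = 0.000312), and Cacna1h, a T-type calcium channel, fell by 0.62. None of the list rose, and 7.14% of it were called. Of 59 potassium channel genes (3.39% called), Kcnh8 (-1.19) and Kcnd3 (-1.29) fell. The count of potassium channel genes called was 1 without RD replicates 1, 3, 4, 5, 6 or 7 or HFD replicates 1, 2, 3 or 4, 6 without RD replicate 2 and 8 without HFD replicate 7, and that of the voltage-gated channels 1 without RD replicates 1 or 7 or HFD replicates 2 or 4 and 6 without HFD replicate 7. Among 23 TRP channel genes (17.4% called), Trpm5, Trpm3 (-0.36) and the endolysosomal Mcoln3 (-1.16) fell and Trpc4 (0.41) rose. Of 31 genes of calcium stores (9.68% called), Itpr1, the IP3 receptor that opens ER stores, fell from a median of 4443 (3437 to 4601) to 2544 (1763 to 3188) without overlap, and Atp2a2, the calcium pump of the ER, fell by 0.29. Ryr2, the ryanodine receptor, rose from 3.24 to 16.2 counts to 9.43 to 177 (2.99 ± 0.51, edgeR adjusted p = 0.00170). Pde1c, a phosphodiesterase activated by calcium, was the only call among 40 genes of cyclic AMP signalling (2.50% called; -0.62, 528 to 662 counts in RD and 271 to 447 in HFD). Not every fit without 1 library called Cacna1h, Kcnd3, Trpm3, Mcoln3, Trpc4 and Atp2a2. At most, the adjusted p of these genes ran from 0.0111 (Cacna1h, without RD replicate 7) to 0.0247 (Trpc4, without RD replicate 7).

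Of 66 genes for receptors and adhesion proteins shared with synapses 5 fell and 1 rose. Grik2 (-1.24) and Gria3 (-0.73), subunits of glutamate receptors, Chrna4 (-1.60), a nicotinic receptor subunit, and the adhesion gene Cntnap2 (-0.40) were among the lower ones, and Gabra4, a GABA receptor subunit, rose by 0.94. The median of the list was -0.20 and 19 of its members lay above 0. Its count of called members was 3 without RD replicate 5 or HFD replicate 3 and 13 without HFD replicate 7. Gria3 ran from 414 to 496 counts in RD and from 199 to 397 in HFD. Among 17 genes of transmitter handling, Abat, which degrades GABA, fell by 0.36 and Sv2b by 0.76, and the glutamate transporter gene Slc1a1 rose by 1.11. Of 56 genes for G protein-coupled receptors, Crhr1, the receptor for corticotropin-releasing hormone, fell from 28.2 to 77.7 counts in RD to 7.89 to 27.4 in HFD (-1.72 ± 0.29, edgeR adjusted p = 0.00131). The cannabinoid receptor gene Cnr1 fell by 1.37, and the melanocortin receptor gene Mc5r rose by 1.58. In this receptor list 5.36% of all tested members were called, against 2.44% of all genes tested and 4.13% of those at 50 counts or more. Crhr1 and Cnr1 lay below that level, with means of 34.5 and 34.3 counts, and 39 of the 56 members reached it. Here the calls lost without single libraries were those of Chrna4, Cntnap2, Sv2b and Cnr1. For these genes the highest adjusted p ran from 0.0107 (Cntnap2, without HFD replicate 3) to 0.0165 (Sv2b, without RD replicate 7). Called members without HFD replicate 7 numbered 7 of the transmitter handling genes (against 3) and 8 of the receptor genes (against 3).

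Lipid genes gave calls in both directions. Fatty acids enter the cell by transporters such as CD36, are bound by carriers such as FABP4, and reach the mitochondrial matrix through the carnitine shuttle, where they are burnt. Cd36 rose from 47.3 to 80.1 counts in RD to 104.6 to 146 in HFD (log2 fold change 0.91 ± 0.13, edgeR adjusted p = 0.000512), and with Fabp4 and Mgll (0.35), which frees fatty acids from monoglycerides, it made up the higher members among 38 genes of lipid uptake and storage. Lpl, lipoprotein lipase, fell from 4529 to 6677 counts (median 5746) to 1827 to 4293 (median 2375), a log2 fold change of -1.08 ± 0.14 (edgeR adjusted p = 0.000233). Vldlr, the receptor for very low density lipoprotein, fell from 893 to 1143 to 549 to 847. Cpt1a, the gate of the carnitine shuttle, rose from 1468 to 2079 counts to 2595 to 2959 (0.63 ± 0.08, edgeR adjusted p = 0.000153), and Slc25a20, the carnitine carrier, from 644 to 798 to 821 to 1098 (0.46). In Fabp4, Cd36, Lpl, Vldlr, Cpt1a and Slc25a20 the diets did not overlap. Of the 33 genes of fatty acid oxidation, Cpt1a, Slc25a20, the uncoupling protein gene Ucp2 (0.33) and the oxidation enzyme genes Acadvl (0.40) and Acaa2 (0.34) rose and Acadsb (-0.26), which acts on short branched chains, fell. The median of the list was -0.01 and 14 lay above 0. Acadm and Hadha, which act in the same pathway, stood at -0.09 and -0.01. Of 20 genes of fatty acid synthesis and desaturation the elongase gene Elovl1 rose by 0.34 and Scd1 fell. None of 33 genes of sterol synthesis was called by edgeR (8 at an unadjusted p under 0.05, 2 called by DESeq2). The fits that left out 1 library did not all call Mgll, Acadvl, Acaa2, Acadsb, Elovl1 and Scd1. Across them the highest adjusted p ran from 0.0102 (Elovl1, without HFD replicate 4) to 0.0293 (Mgll, without RD replicate 7). With HFD replicate 7 left out, the number called was 8 of the lipid uptake and storage genes (against 5).

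Lists of mitochondrial fuel use held 0 to 3 calls each. None of 75 nuclear genes for the respiratory chain and ATP synthase was called by edgeR (27 at an unadjusted p under 0.05, 1 called by DESeq2), and 67 of them lay above 0 with a median of 0.13. Their smallest p belonged to Ndufa1 (0.63, edgeR adjusted p = 0.0116). None of the 13 proteins encoded in mitochondrial DNA lay above 0 (median -0.23) and mt-Nd5 fell, from 98733 to 108360 counts to 75354 to 101060 (-0.29, edgeR adjusted p = 0.00596). Of 47 genes of the TCA cycle and shuttles, Me3, a mitochondrial malic enzyme, rose from 485 to 645 counts to 699 to 1007 (0.62), and Gpd2, of the glycerol phosphate shuttle (-0.54), and Pcx, pyruvate carboxylase (-0.53), fell. Pcx ran from 5574 to 7233 counts in RD and from 3094 to 5562 in HFD. Of 25 genes that break down branched-chain amino acids, the dehydrogenase genes Ivd (-0.40) and Acadsb and the transacylase gene Dbt (-0.36) fell and none rose. Of 18 regulators of mitochondrial biogenesis the nuclear receptor gene Esrrb rose by 1.53, from 1.90 to 14.6 counts in RD to 15.4 to 30.7 in HFD. One library less was enough to lose mt-Nd5, Ivd, Dbt, Acadsb and Esrrb. The highest adjusted p per gene then ran from 0.0107 (Ivd, without RD replicate 7) to 0.0210 (Esrrb, without RD replicate 1). Counts of called members rose without HFD replicate 7 to 6 of the TCA cycle and shuttle genes (against 3) and 6 of the branched-chain amino acid genes (against 3).

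Extracellular matrix lists held calls in the upward direction only, while the matrix gene Tnr, outside these lists, fell by 0.83 on the log2 scale. Of 39 collagen genes, 6 rose and none fell, and the median was 0.33 on the log2 scale. The 6 were Col6a1 (1.17), Col6a2 (1.07) and Col6a3 (1.13), chains of collagen VI, Col4a2 (0.62), of basement membrane, Col18a1 (0.95), the source of endostatin, and Col8a1 (0.50). Of 37 laminins and matrix glycoproteins, 7 rose and none fell. Fn1, fibronectin, rose from 67.2 to 195 counts in RD (median 86.3) to 136 to 755 in HFD (median 434), a log2 fold change of 1.96 ± 0.29 (edgeR adjusted p = 0.000579), with HFD replicate 7 the only HFD library inside the RD range. The others were Sparc (0.54) and Sparcl1 (0.69), which bind collagen, Eln, elastin (1.24), the laminin gene Lama5 (0.65), the proteoglycan gene Bgn (0.69) and the fibrillin gene Fbn1 (0.81). P3h2 (0.98), a collagen prolyl hydroxylase, and Adamts5 (1.10), an aggrecan protease, rose among 40 genes of matrix remodelling, and Zyx (0.42), zyxin, among 39 of adhesion. These are 5.0% of the remodelling list and 2.56% of the adhesion list. The share was 2.44% of all genes tested and 4.13% of those at 50 counts or more. HFD replicate 7 lay inside the RD range for 4 of the 6 called collagens, below it for 1 (Col6a3, 68.6 against 74.7 to 133 counts), and inside it for 7 of the 7 called glycoproteins. Within replicates 1 to 4 and 5 to 7 the medians were 0.29 and 0.43 for collagens and 0.34 and 0.48 for glycoproteins. The number of collagens called was 3 without RD replicates 5 or 7 or HFD replicate 4 and 15 without HFD replicate 7, and that of glycoproteins 4 without RD replicates 1, 5, 6 or 7 or HFD replicates 2, 3 or 5 and 11 without HFD replicate 7.

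Among markers of the cells that lay down matrix and line vessels, calls were found mainly in the list of pericytes and smooth muscle. Of 13 markers of pericytes and smooth muscle, all lay above 0 (median 0.49) and 5 rose. They were Tagln, transgelin (295 to 415 counts in RD, 459 to 765 in HFD; 0.86 ± 0.10, edgeR adjusted p = 0.000128), Acta2, smooth muscle actin (0.91), the receptor gene Notch3 (0.60), Myh11, smooth muscle myosin (0.49), and Rgs5 (0.50). The 13 genes summed to 11717 to 16040.3 counts in RD and 14507 to 23269 in HFD libraries, and only HFD replicate 7 lay below the RD maximum. Of 18 markers of stellate cells and fibroblasts, 17 lay above 0 (median 0.60) and none was called by edgeR (11 at an unadjusted p under 0.05, 3 called by DESeq2; 2 without RD replicate 2 and 5 without HFD replicate 7), with sums of 2046 to 3821 in RD and 2285 to 6346 in HFD. Col3a1 stood at 1.09 (edgeR adjusted p = 0.0171), and the defining marker Pdgfra ran from 0 to 7.58 counts in RD and from 0 to 9.67 in HFD. Of 20 endothelial markers Eng rose (0.40), and Pecam1 stood at 0.18 (edgeR adjusted p = 0.109), with sums of 29003 to 35760.1 in RD and 27683 to 40169.6 in HFD. Of 27 macrophage markers the integrin gene Itgax (0.74) and the perforin gene Mpeg1 (0.46) rose, Adgre1 stood at 0.38 (edgeR adjusted p = 0.0665), and the sums were 8759 to 10646 in RD and 8759 to 11855 in HFD. In the endothelial list 5.0% and in the macrophage list 7.41% were called. The share was 2.44% of all genes tested and 4.13% of those at 50 counts or more. The part of pericytes, fibroblasts, endothelium and macrophages in the matrix increase was not tested. Of 45 genes of actin, tubulin and filaments 6 rose and none fell: the myosin light chain gene Myl9 (0.80), Acta2, the tropomyosin genes Tpm2 (0.67) and Tpm1 (0.31), the stathmin gene Stmn1 (1.10) and the tubulin gene Tubb6 (1.0). Across the matrix, mural, vessel and filament genes named, calls were lost in turn for Col6a2, Col6a3, Col4a2, Lama5, Bgn, Fbn1, Adamts5, Zyx, Notch3, Myh11, Rgs5, Eng, Itgax, Mpeg1, Tpm1, Stmn1 and Tubb6. Their highest adjusted p ran from 0.0101 (Stmn1, without HFD replicate 3) to 0.0233 (Fbn1, without RD replicate 7). Leaving out HFD replicate 7 gave 8 of the matrix remodelling genes (against 2), 7 of the adhesion genes (against 1) and 12 of the filament genes (against 6).

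**Figure D5:**
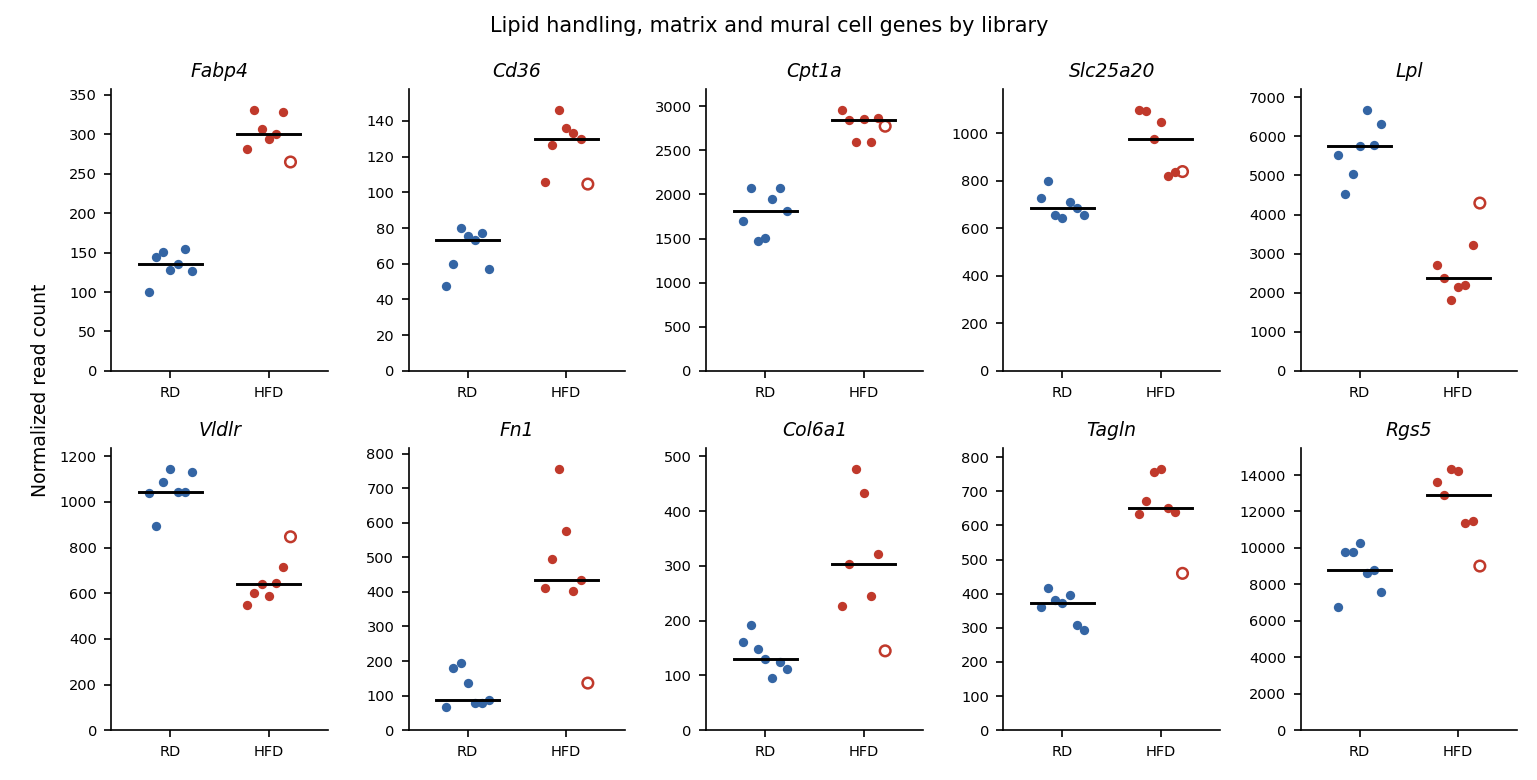
Normalized read count (vertical axes, from 0) of 10 genes of lipid handling, matrix and mural cells in the RD and HFD libraries, ordered by replicate number within a diet, with a line at the median and HFD replicate 7 as an open circle. For Fabp4, Cd36, Cpt1a, Slc25a20, Lpl and Vldlr the HFD libraries lie outside the RD range, while for Fn1 HFD replicate 7 lies inside it.

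Growth factor and signalling genes gave single calls in both directions. Of 54 genes of TGF-β, BMP and Wnt signalling, the activin subunit genes Inhba and Inhbb (145 to 319.5 counts in RD, 266 to 634 in HFD; 0.99) and the growth factor gene Tgfb3 (0.63) rose. Smad3, which carries the TGF-β signal to the nucleus, fell from 149 to 221 counts to 92.8 to 145 (-0.66) and the BMP receptor gene Bmpr1b fell by 0.95. Of 44 genes of receptor tyrosine kinase, insulin and IGF signalling 3 fell and none rose: Grb10, an adaptor that restrains the insulin and IGF-1 receptors (1841 to 2089 counts in RD, 1248 to 1633 in HFD), the IGF-1 receptor gene Igf1r (-0.40) and Tsc1 (-0.29), a brake on mTORC1. Of 23 AMPK genes the regulatory subunit gene Prkab2 fell from 484 to 582 counts to 340.1 to 429 (-0.43, edgeR adjusted p = 0.00136). Of 20 genes of serotonin and lactogen signalling Maob, which degrades amines (-0.49), the leucine breakdown gene Ivd and the cyclin gene Ccnd2 fell. Dusp6, a phosphatase of ERK, rose by 0.62 as the only call among 32 immediate early genes, and Tgfb3 was the only call among 34 cytokine and NF-κB genes. Called shares were 9.26% of the TGF-β, BMP and Wnt list, 6.82% of the receptor kinase and insulin list and 4.35% of the AMPK genes. They were 15.0% of the serotonin list, 3.125% of the immediate early genes and 2.94% of the cytokine list. Among all genes tested the share was 2.44%, and among those at 50 counts or more it was 4.13%. When libraries were left out in turn, the call was lost for Igf1r, Tsc1 and Dusp6. At most, the adjusted p of these genes ran from 0.0155 (Dusp6, without HFD replicate 4) to 0.0237 (Tsc1, without HFD replicate 3). Called members without HFD replicate 7 numbered 7 of the receptor kinase and insulin list (against 3) and 4 of the AMPK genes (against 1).

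Imprinted genes, which are expressed from the copy of a single parent, were called only downward. Of 38 tested, 8 fell and none rose, with a median of -0.16: Grb10, the zinc finger gene Zim1 (1416 to 2365 counts in RD, 465 to 1382 in HFD; -0.97 ± 0.17, edgeR adjusted p = 0.00170), Ppp1r9a (-0.32), Impact (-0.34), Usp29 (-0.39), Peg10 (-0.82), Sgce (-0.51) and Asb4 (-0.62). Zim1 and Usp29 lie close together on chromosome 7, and Peg10, Sgce, Ppp1r9a and Asb4 on chromosome 6. The count of called members was 2 without HFD replicate 3, 3 without RD replicates 5 or 7 or HFD replicates 2 or 4, 4 without RD replicate 6 or HFD replicate 5 and 5 without RD replicates 1, 3 or 4, with medians of -0.18 and -0.22 within replicates 1 to 4 and 5 to 7. The interferon list, with antiviral and MHC class I genes, had 3 of 44 lower and none higher and a median of -0.22: the antiviral genes Mx1 (-0.76) and Ifih1 (-0.44), and Parp14 (-0.43). Its count was 0 without RD replicates 5, 6 or 7 or HFD replicates 3, 4 or 5, 1 without RD replicate 1 and 7 without HFD replicate 7. Of 26 clock genes Npas2 (-0.45) and Arntl (-0.31), subunits of the activator, fell and 4 lay above 0. Without RD replicates 3, 4, 5, 6 or 7 or HFD replicates 1, 3, 4, 5 or 6 the count was 0. Without RD replicate 1 it was 1. Called shares were 21.1% of the imprinted list, 6.82% of the interferon list and 7.69% of the clock list. Among all genes tested the share was 2.44%, and among those at 50 counts or more it was 4.13%.

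Of 53 genes of glutathione and antioxidant defence, Gsto2, Gpx3, a secreted glutathione peroxidase (22860 to 29889 counts in RD, 29359 to 62737 in HFD; 0.86), and Prdx4, the peroxiredoxin of the ER (0.58), rose, and the transferase gene Gstm2 fell from 476 to 558 counts to 314 to 393 (-0.52 ± 0.07, edgeR adjusted p = 0.000171). Of 26 genes for zinc transport and metallothioneins 3 fell and none rose: Slc39a8, an importer of metal ions (-1.16), Slc30a8 and Mt2 (-0.72). Of 35 amino acid transporter genes Slc7a2 and Slc7a8 (-0.25) fell and Slc1a1 rose. Of 48 genes of autophagy and lysosomes Glb1, β-galactosidase, rose by 0.37 and Asah1, acid ceramidase, fell by 0.35. That is 4.17% of the list, against 4.13% of all genes at 50 counts or more. Of 27 genes of the retinoid pathway Aldh1a3 rose and Rbp4 fell, and of 29 genes usually silent in β-cells Tpm2 and Zyx rose and Smad3 fell. The share called was 7.55% of the antioxidant list, 11.5% of the zinc list and 8.57% of the amino acid transporters. It was 7.41% of the retinoid list and 10.3% of the usually silent genes. No call by edgeR came from 31 proteasome genes (5 at an unadjusted p under 0.05, 1 called by DESeq2; all above 0, median 0.12), 28 cytosolic chaperones (4 at an unadjusted p under 0.05, 1 called by DESeq2; median 0.19) or 22 genes of the vacuolar ATPase (4 at an unadjusted p under 0.05, 1 called by DESeq2; median 0.06). Psmd8 (0.23, edgeR adjusted p = 0.0289), Cryab (0.57, 0.0182) and Atp6v0e2 (0.29, 0.0231) had the smallest p there. Leaving out single libraries lost the call of Prdx4, Mt2, Slc7a8 and Asah1. For these genes the highest adjusted p ran from 0.0120 (Asah1, without RD replicate 5) to 0.0264 (Mt2, without RD replicate 1). With HFD replicate 7 left out, the number called was 10 of the antioxidant genes (against 4), 6 of the zinc list (against 3) and 6 of the autophagy and lysosome list (against 2).

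Among markers of other cells, the epithelial factor gene Ehf fell by 0.33 as the only call of 15 duct genes, while Krt19 stood at -0.10. No call came from 12 Schwann cell genes (2 at an unadjusted p under 0.05, 0 called by DESeq2), 19 T, B and NK cell genes (7 at an unadjusted p under 0.05, 1 called by DESeq2), 5 adipocyte genes (1 at an unadjusted p under 0.05, 0 called by DESeq2), whose defining marker Adipoq was too low to be tested, or 6 erythroid genes (3 at an unadjusted p under 0.05, 0 called by DESeq2), all by edgeR.

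Families were also read from the shared stem of gene symbols, over 156 stems with at least 10 members at 50 counts or more, of which 84 had no called member. The largest called share was that of aldehyde dehydrogenases, with 4 of 13 called (Aldh1a3 and Aldh9a1, 0.28, higher, and Aldh1b1, -0.51, and Aldh4a1, -0.34, lower), against 4.13% of all genes at that level. Collagens followed with 6 of 27, all higher. Of 10 Adam genes Adam15 rose (0.45) and Adam32 fell, of 10 Cacna genes Cacna2d2 and Cacna1h fell, and of 10 genes with a symbol of F and a digit, coagulation factors and their receptors among them, F13a1 rose (611 to 1349 counts in RD, 885 to 3091 in HFD) and F5 fell (-0.76). The kinesins had 5 of 27 higher, namely Kif4, Kif20a, Kif20b, Kif22 and Kif23, with a median over the family of -0.05. Of the genes in these families, calls failed without 1 library or another for Aldh1a3, Aldh9a1, Aldh1b1, Aldh4a1, F5, Kif4, Kif20a, Kif23 and Cacna1h. Across them the highest adjusted p ran from 0.0111 (Cacna1h, without RD replicate 7) to 0.0250 (Kif23, without HFD replicate 3).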

How the data were processed

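Libraries had been made from islet RNA with an Illumina TruSeq kit and sequenced as 50-nt read pairs. The authors aligned the pairs to GRCm38 with STAR and deposited its counts per gene, which are raw counts of uniquely mapped pairs that are neither filtered nor normalized (versions of STAR and FastQC are not given in the sources used here). The column of counts with the second read on the strand of the gene was used, since it held 33.2 to 36.3 times the pairs of the opposite column. All 55536 gene rows matched the Ensembl 96 annotation. Pairs mapping to several places (7.28 to 8.70%) or otherwise outside the gene rows (18.5 to 24.9% in all) stayed out, so that near-identical genes may be undercounted.

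Genes with a sum of at least 10 counts over the 14 libraries (25665 genes) were tested with the quasi-likelihood test of edgeR (4.0.16, TMM scaling, limma 3.58.1, R 4.3.3) with diet as the single term, and called at a Benjamini-Hochberg adjusted p under 0.01. Normalized read counts are counts divided by size factors of DESeq2 (1.42.0). Ranges, lists and figures were computed in Python 3.11.15 with numpy 2.4.6, pandas 2.3.3 and matplotlib 3.10.9. The comparison, the gene lists and the rules were chosen with earlier results of these data known. Genes named were the 10 largest changes in each direction among called genes at 50 normalized counts or more without overlap and with a symbol not of the Gm or Rik kind, the 5 of smallest p in each direction, up to 6 called members per list by p (3 by p where none was called), the defining marker of each cell type and the called members of the 5 symbol stems with the largest called share. Further list members were named after their values were seen, to complete the called members of a list or to show a well-known member that was not called. Lists are described by counts and medians, without a set test.

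On simulated counts for 25124 genes of the HFD and RD comparison, edgeR recovered 46 of 100 genes changed by a log2 of 0.5 and 97 of 100 changed by a log2 of 1, with 1 false call, and 0 genes when nothing was changed. DESeq2 recovered 73 and 98, with 12 false calls, and 0 genes when nothing was changed. Changed genes were drawn only from those with a mean of at least 50 counts. No simulated library was made to stand apart as HFD replicate 7 does. Alternatives were DESeq2, its size factors, other filters on low counts, unstranded counts, the 21 libraries in a single fit, replicate number, library set or acinar marker level as a term, each library set alone, and leaving out libraries. Of RefSeq promoter windows the one with the lowest coordinate was used where a gene had several. Results for some called genes are not reported here. Histone mark data of the study were not analysed here.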

Additional observations from a re-analysis of the deposited data

Results flagged for a closer look

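Of 478 groups of 7 libraries tested (the counts of the named genes and the summed cell type markers in each diet), 35 held a highest or lowest library whose gap to its neighbour exceeded 0.57 of the group's range, Dixon's 95% limit, where chance gives about 1 in 20. In RD these were 14 groups, with replicate 2 as the distant library in 7, and in HFD 21 groups, with replicate 7 in 12.

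HFD replicate 7 stood on the side of RD in Tnr (2424 counts), Acadsb (3307), Maob (6716), Stxbp5l (163), Asah1 (8622), Rbp4 (3558) and Sst (99772), all highest in that library, and in Tpm2 (179) and Col6a3 (68.6), lowest there. The same library was the highest of its diet in summed δ-cell markers (104387) and the lowest in summed pericyte and smooth muscle markers (14507). Plin1, perilipin of fat cells, stood at 102.9 counts in HFD replicate 7 and at 39.9 in RD replicate 7, far above the other libraries of each diet.

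RD replicate 2 was lowest of its diet in Vldlr (893), Kcnd3 (18.01) and the myelin gene Mbp (2546), and highest in Ccne2 (229), Mc5r (214), Gabra4 (273) and Pdgfra (7.58). Other RD libraries apart from the rest were replicate 4 in Ccnd2 (42391), replicate 5 in Gcg (988550), Eln (35.8) and summed α-cell markers (1059100), replicate 6 in the trypsinogen gene Prss1 (8.33) and replicate 1 in Cd4 (6.30). In HFD they were replicate 1 in Hells (527) and Peg10 (194), replicate 3 in Prss1 (42.5), replicate 4 in Selenom (6004), Ndufb8 (1756) and summed β-cell markers (13612800), and replicate 5 in the globin genes Hba-a1 (188) and Hbb-bs (723) and in summed erythroid markers (1261).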

How the results depend on the processing

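The count of 627 called genes became 1503 with DESeq2, 1773 at an adjusted p under 0.05, 963 with the 21 libraries in a single fit, 1334 with the library set as a term, 1443 without HFD replicate 7 and RD replicate 2 together and 141 within replicates 5 to 7 alone, and leaving out 1 library gave 308 (RD replicate 7) to 1306 (HFD replicate 7). It stayed within 1.5 times of the main count (578 to 815) under DESeq2 size factors, other filters on low counts, unstranded counts and the acinar term, and was 468 within replicates 1 to 4. A different diet effect between the library sets was called for 0 genes by edgeR at either threshold and for 7 by DESeq2. Of 6064 values of the 225 named genes under 27 alternatives, 4990 kept direction and side of the threshold, 984 kept direction and lost the call, 84 kept direction and gained it, and 6, of genes not called, changed sign. These were Lipe (0.0253 within replicates 5 to 7), Plin1 (-3.06 without HFD replicate 7 and RD replicate 2, and -2.85 to 3.23 over the fits without 1 library) and Krt19 (0.362 within replicates 5 to 7, and -0.192 to 0.0648 without 1 library). The cause was not tested. The titles do not say whether equal replicate numbers pair the libraries, and the values do not settle it. Deviations of same-numbered libraries correlated at -0.538 to 0.637 (7 pairs, mean 0.198), and RD replicates 2, 4 and 6 correlated best with their own number. The fit with replicate number as a block called 1124 genes. On simulated counts edgeR found 46 of 100 genes changed by a log2 of 0.5, all drawn at a mean of at least 50 counts. Changes of this size in single genes were thus often below detection.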

Other observations

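Outside the gene lists 430 genes were called, and those named here were chosen after their values were seen, among genes whose call held without each library. They are single genes, with no count of related genes behind them. Lower were the receptor phosphatase genes Ptprd (log2 fold change -0.70 ± 0.10) and Ptprz1 (-0.61), the teneurin gene Tenm2 (-0.61), the netrin receptor gene Unc5c (-0.89), the reelin gene Reln (-1.08), the protocadherin gene Pcdh9 (-0.75), Dpp10, a partner of potassium channels (-0.94), and the ankyrin gene Ank2 (-0.73). Reln had a mean of 152 counts in RD and 71.6 in HFD. Higher were Gpihbp1, the endothelial anchor of lipoprotein lipase (0.80), Cd34 (0.41), the connexin gene Gja4 (0.60), Cd248 (0.89), the amine oxidase gene Aoc3 (0.78) and the receptor kinase gene Axl (0.44). Gpihbp1 rose while Lpl, whose product it carries, fell.

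Single genes of known islet or metabolic function also differed. Apob, the protein of very low density lipoprotein, rose by 1.81 (a mean of 37.0 counts in RD and 130.0 in HFD) and the milk protein gene Csn3 by 2.48 (a mean of 19.6 counts in RD and 112.3 in HFD). Soat1, which esterifies cholesterol (-0.45), the activin receptor gene Acvr1c (-0.71), the transcription factor gene Gata6 (-0.54), the protein kinase gene Prkcb (-0.52), the granule gene Resp18 (-0.40), the uridine phosphorylase gene Upp1 (-0.76) and the natriuretic peptide convertase gene Corin (-0.85) fell. Each of the genes named in these paragraphs was called in every fit that left out 1 library, with a highest adjusted p of 0.00948 (Pcdh9, without RD replicate 7).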
